A study of Arabidopsis thaliana with 24 samples.

Results

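Dry mature seeds of Arabidopsis thaliana carried a second source of difference beside genotype, the number of the biological replicate, and the 4 seed libraries numbered replicate 1 are compared here with the 4 numbered replicate 3. These 8 libraries are 8 of 12 seed libraries and of 24 libraries in the series, and the 4 libraries numbered replicate 2 are placed between them. They were chosen by the tissue, genotype and replicate number in the labels and by no measured value. Each number holds 1 library of each genotype, namely Col-0 (WT), urt1-1 (a SALK T-DNA insertion in URT1), heso1-4 (a GABI-Kat T-DNA insertion in HESO1) and the double line heso1-4 urt1-1. URT1 and HESO1 are enzymes that add uridines to the 3′ ends of RNAs. All plants were Col-0 or derived from it and grew on soil in a greenhouse under long days, and each library came from seeds pooled from at least 5 plants, collected 8 weeks after the onset of flowering. The labels call the replicates biological without saying what the numbers 1 to 3 refer to, so a shared sowing, harvest, extraction or library day cannot be told apart, and p-values measure only the spread between these libraries.

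A dry seed holds the RNA that its embryo and a thin endosperm stored before they dried. Storage protein, oil body and late embryogenesis abundant (LEA) messengers accumulate during maturation under abscisic acid (ABA) and a small set of transcription factors, and many of them persist in the dry state. The abundance of stored messengers is known to depend on the environment of the mother plant and on how far a seed had matured, after-ripened or aged. The labels do not say whether any of these differed between the numbers. Total RNA depleted of ribosomal RNA was sequenced, and a level below is a gene's count relative to the scaled total of its library. In such bulk samples fewer cells of a type and less RNA per cell cannot be told apart.

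Total counts on genes ranged from 19304121 to 32791298 in replicate 1, from 21105548 to 37944609 in replicate 2 and from 25625320 to 38853305 in replicate 3. URT1 (AT2G45620) stood at 2.39 to 3.80 CPM (counts scaled to a common library total, with TMM normalization) in the 6 seed libraries labelled with urt1-1 and at 87.1 to 110 CPM in the other 6. HESO1 went against its label in all 6 libraries concerned, with 177 to 187 CPM in libraries labelled heso1-4, 46.7 to 51.9 CPM in libraries labelled heso1-4 urt1-1 and 0.107 to 0.585 CPM in WT and urt1-1, so these libraries are named by their label. The library labelled heso1-4 of replicate 3 stood apart from the others. Its TMM factor was 0.717 against 0.923 to 1.15 in the other 11, and small nuclear and nucleolar RNAs held 0.612% of its counts against 0.214% to 0.348%. Some results that rest on it are also given without it. The seed markers were present throughout, since the 12 seed storage genes summed to at least 63800 CPM in every seed library, while the floral organ and carpel list summed to at most 11.3 CPM.

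Between replicates 1 and 3, with genotype held as a block, 1620 of 17571 tested genes passed an adjusted p of 0.05 in edgeR's quasi-likelihood test, which is 9.22% of them. In replicate 1, 769 of these (4.38% of all tested) were higher and 851 (4.84%) were lower, and before adjustment 4244 genes had a p under 0.05. Most differences were small. The median called gene was 1.40-fold higher or 1.33-fold lower in replicate 1, and 76 higher and 62 lower genes passed 2-fold. A test of any difference among the 3 numbers called 1657 genes (9.43%), and the same fit called 247 genes (1.41%) for any difference among the 4 genotypes, a count that ran from 68 without WT replicate 1 to 489 without heso1-4 replicate 3. Over 10832 genes with a mean of at least 5 CPM, the replicate number held a median of 28.7% of a gene's variance, genotype 28.4% and the remainder 34.7%, on 18.2%, 27.3% and 54.5% of the degrees of freedom.

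**Figure D1:**
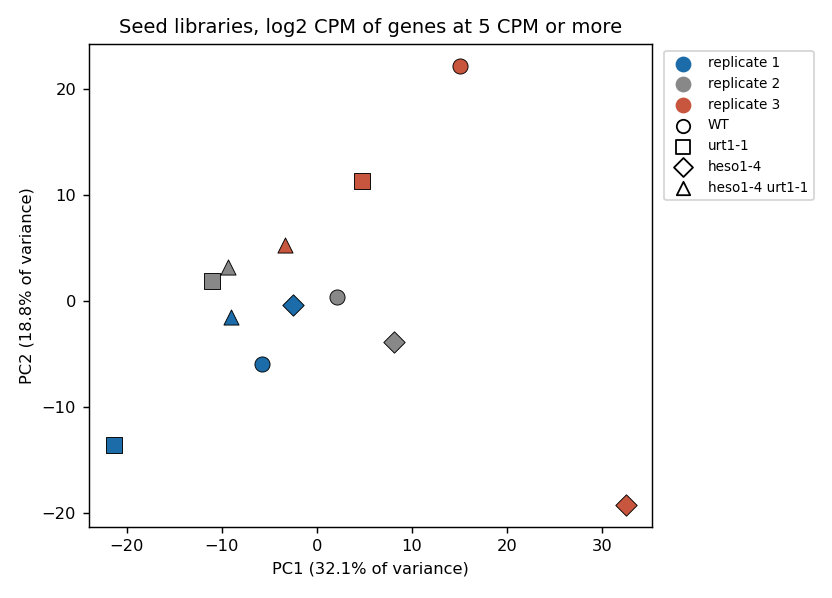
Principal components of the 12 seed libraries from log2 CPM of 10832 genes, with replicate number as colour and genotype as symbol; PC1 holds 32.1% and PC2 18.8% of the variance. Within each of the 4 genotypes the replicate 1 library lies at a lower PC1 value than the replicate 3 library, and the library labelled heso1-4 of replicate 3 lies farthest to the right at 32.5.

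The called genes mostly differed the same way in every genotype, but by unequal amounts. Of the 769 genes higher in replicate 1, 720 were higher in 4 of 4 genotypes and 49 in 3, and of the 851 lower genes 787 were lower in 4 of 4 and 64 in 3. Among all tested genes 27.2% had 1 direction in 4 of 4 genotypes, and the test itself selects such genes. The median difference of the higher genes, in log2 CPM of replicate 1 minus replicate 3, was 0.55 for WT, 0.61 for urt1-1, 0.50 for the heso1-4 label and 0.27 for the heso1-4 urt1-1 label. That of the lower genes was −0.48, −0.55, −0.40 and −0.21 in the same order. The double line therefore differed least between its numbers, and over 10832 genes the standard deviation of its difference was 0.231 against 0.378 to 0.437 in the other lines.

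Across those 10832 genes the differences of WT and urt1-1 between replicates 1 and 3 resembled each other far more than those of any other pair. Pearson's r was 0.742 for WT with urt1-1, 0.188 for WT with heso1-4 labelled libraries and 0.190 for WT with the double line. It was 0.291 for urt1-1 with heso1-4, 0.322 for urt1-1 with the double line and 0.0731 for heso1-4 with the double line. The values for heso1-4 use the replicate 3 library that stood apart. Replicate 1 minus 2 does not use it, and there r was 0.49 for WT with urt1-1 and 0.398 for WT with heso1-4. For that difference it was 0.236 for WT with the double line, 0.277 for urt1-1 with heso1-4, 0.295 for urt1-1 with the double line and 0.182 for heso1-4 with the double line. Replicate 2 minus 3 uses the heso1-4 library that stood apart, and there r was 0.605 for WT with urt1-1. In that difference r was 0.177 for WT with heso1-4, 0.354 for WT with the double line and 0.436 for urt1-1 with heso1-4. It was 0.458 for urt1-1 with the double line and 0.283 for heso1-4 with the double line. These are descriptions across genes, which are not independent, and the libraries of each genotype are separate. The count of called genes followed the pattern of replicate 1 minus 3. It was 196 with the 3 WT libraries left out and 60 with the 3 urt1-1 libraries left out, against 1685 and 2102 with the heso1-4 and heso1-4 urt1-1 libraries left out. Among single libraries, the count was 388 without urt1-1 replicate 3, 445 without urt1-1 replicate 1, 523 without WT replicate 1 and 564 without WT replicate 3. Of the 1620 genes, 353 were called in each of the 12 fits that left out 1 library, 176 of them higher and 177 lower in replicate 1.

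**Figure D2:**
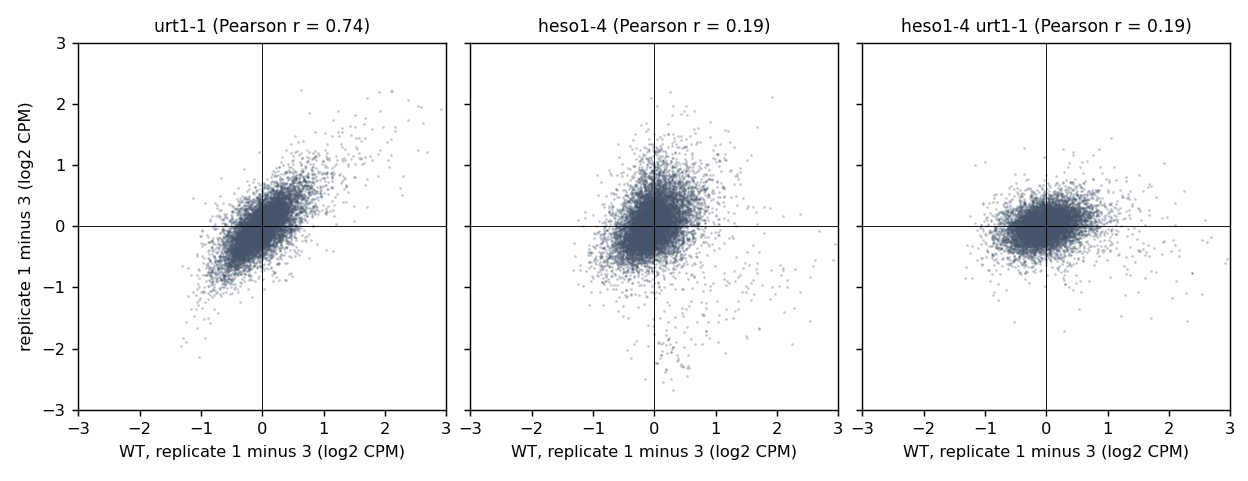
Log2 CPM of replicate 1 minus replicate 3 for 10832 genes, in WT on the horizontal axis and in urt1-1, heso1-4 or heso1-4 urt1-1 on the vertical axis, 1 point per gene, with 7 points outside the axes. The cloud of urt1-1 runs along the diagonal (Pearson r = 0.74) and the other clouds are close to round (0.19 each). The heso1-4 panel uses the replicate 3 library that stood apart.

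Only 56 genes, 28 higher and 28 lower in replicate 1, were called whichever 1 of the 4 genotypes was left out, and all 56 were also called in each of the 12 fits without 1 library and with the 8 libraries of replicates 1 and 3 alone. They are the genes whose call rested on no single genotype. The other called genes missed the threshold in some of these smaller fits, but kept their sign in each one that tested them. Levels below are CPM and the 4 values of a replicate number are always those of WT, urt1-1, heso1-4 and heso1-4 urt1-1. Genes of the 56 named in this paragraph and the next were in part chosen after their values were seen, namely JAL34, XYL1, AGAL1, TUB3, HB33, PDX1.1 and PPC2 here. Largest among the 28 higher genes was JAL34, a jacalin-related lectin, with 1.61, 4.53, 1.06 and 6.82 CPM in replicate 1, 0.162, 0.481, 0.198 and 0.394 CPM in replicate 2, and 0.254, 0.542, 0.0865 and 1.54 CPM in replicate 3 (log2 fold change 2.61 ± 0.33 SE, adjusted p = 6.2e-04). Every genotype was higher in replicate 1, although 1 library of replicate 3 reached into the range of replicate 1. PMEPCRA, a pectin methylesterase of the cell wall, stood at 5.13, 7.42, 4.35 and 6.24 CPM in replicate 1 against 0.719, 1.52, 1.21 and 2.82 CPM in replicate 3 (1.96 ± 0.24, adjusted p = 5.9e-04). MSL9, a mechanosensitive ion channel, stood at 9.73, 17.5, 8.13 and 12.0 CPM against 2.54, 4.69, 1.82 and 5.87 CPM (1.72 ± 0.17, 1.6e-04). Neither gene overlapped between the 2 numbers. Other wall-acting enzymes of the set were XYL1, an alpha-xylosidase acting on xyloglucan, at 1.16 ± 0.14, and the alpha-galactosidase AGAL1 at 1.06 ± 0.15. The growth regulator GRF5 was higher by 1.11 ± 0.13, the beta-tubulin gene TUB3 by 1.03 ± 0.13, the zinc finger homeodomain gene HB33 by 0.82 ± 0.11, PDX1.1 of vitamin B6 synthesis by 0.85 ± 0.11 and the phosphoenolpyruvate carboxylase gene PPC2 by 0.59 ± 0.07.

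Of the 28 lower genes 9 are described here, without any test of shared function. Those outside the naming rule, so chosen after their values were seen, were MIPS1, CAT1, NCED4, GASA2, SPP2, SWEET6, ACAT2 and GRXC1. MIPS1, which makes the inositol phosphate from which phytate and galactinol derive, stood at 60.9, 42.9, 63.2 and 66.8 CPM in replicate 1, 65.7, 67.9, 71.9 and 69.6 CPM in replicate 2 and 116, 101, 110 and 83.8 CPM in replicate 3 (−0.82 ± 0.12, adjusted p = 2.6e-03). All 4 replicate 3 libraries exceeded all 8 others. CAT1, a catalase, stood at 124, 95.4, 128 and 158 CPM in replicate 1 and 205, 180, 183 and 215 CPM in replicate 3 (−0.65 ± 0.08). NCED4, a carotenoid cleavage dioxygenase, stood at 129, 83.9, 127 and 116 CPM in replicate 1 and 203, 166, 183 and 154 CPM in replicate 3 (−0.64 ± 0.08). Again the 2 numbers did not overlap in either gene. The gibberellin-regulated peptide gene GASA2 was lower by −0.72 ± 0.10, the sucrose-phosphate phosphatase SPP2 by −0.65 ± 0.08, the sugar transporter SWEET6 by −0.67 ± 0.08, the thiolase ACAT2 by −0.72 ± 0.09 and the glutaredoxin GRXC1 by −0.64 ± 0.08. AT1G48750, of the lipid transfer protein family, was lower by −0.998 ± 0.09, with 30.8 to 49.7 CPM in replicate 1 and 71.5 to 85.9 CPM in replicate 3.

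The genes with the largest differences whose 4 and 4 libraries did not overlap and whose higher mean reached 5 CPM included several that are not in the lists. JRG21, a jasmonate-regulated gene of the jasmonate oxidase family, had the largest rise of them, with 9.29, 5.10, 4.53 and 1.94 CPM in replicate 1 and 0.254, 0.488, 0.779 and 1.05 CPM in replicate 3 (2.75 ± 0.61, edgeR adjusted p = 0.031). Its call was lost in 7 of the 12 fits without 1 library (adjusted p up to 0.15). AT5G14450, of the GDSL lipase family, stood at 34.2, 61.9, 36.2 and 53.7 CPM in replicate 1 and 16.8, 21.6, 16.0 and 31.6 CPM in replicate 3 (1.118 ± 0.10). The receptor-like kinase gene AT3G24240 was higher by 1.24 ± 0.17, the uncharacterized RNA AT5G00395 by 1.23 ± 0.15 and the sulfurtransferase STR18 by 1.14 ± 0.16, and these 3 genes and AT5G14450 belong to the 56. Among the lower genes GA2OX6, a gibberellin 2-oxidase that inactivates gibberellin, stood at 5.08, 2.50, 4.63 and 5.11 CPM in replicate 1 and 12.8, 9.84, 7.62 and 9.25 CPM in replicate 3 (−1.21 ± 0.20, adjusted p = 2.9e-03). AT1G27030, of unknown function and 1 of the 56 genes, stood at 5.63 to 11.8 CPM in replicate 1 and 16.6 to 21.3 CPM in replicate 3 (−1.09 ± 0.14). CYP77A6, a cytochrome P450 of cutin synthesis, was lower by −0.95 ± 0.17 and the glutathione transferase GSTU9 by −0.86 ± 0.13, and the calls of both and of GA2OX6 held without any 1 library. The noncoding RNA AT1G04273, which overlaps another gene on its strand, was lower by −1.20 ± 0.29, and by −0.74 without the heso1-4 library of replicate 3, where it was highest. Its call was lost in 4 of the 12 fits, that of the DUF1442 gene AT1G62840 (−0.93 ± 0.21) in 3 and that of AT2G30930, of unknown function (−0.89 ± 0.18), without urt1-1 replicate 3.

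Of the lists with called members, the nitrate list was the one whose called members were all kept with any genotype or any 1 library left out. NIR1, the plastid nitrite reductase (chr2:6810395-6812941, plus strand), and UPM1, which makes the sirohaem cofactor of that reductase (chr5:16365900-16369316, plus strand), were both higher in replicate 1. NIR1 stood at 236, 307, 271 and 273 CPM in replicate 1, 257, 308, 234 and 281 CPM in replicate 2 and 134, 198, 150 and 203 CPM in replicate 3 (log2 fold change 0.68 ± 0.08, edgeR adjusted p = 5.9e-04). UPM1 stood at 69.95, 88.4, 77.5 and 81.8 CPM in replicate 1, 70.6, 85.3, 78.1 and 76.7 CPM in replicate 2 and 40.3, 55.1, 43.7 and 54.0 CPM in replicate 3 (0.72 ± 0.07, 1.1e-04). In both genes replicates 1 and 2 lay together and replicate 3 lay below every library of theirs. These were 2 of 12 tested members (16.7%) of the nitrate-responsive list, none was lower, and the list's median was 0.04 beside 0.02 for all tested genes. The count of each list is to be read against the 4.38% higher and 4.84% lower among all tested genes, and the share of its tested members is given in parentheses for the main lists. The nitrate reductase NIA1 stood at 102 to 130 CPM in replicate 1 and 66.9 to 98.2 CPM in replicate 3, without passing the test (0.39 ± 0.14, adjusted p = 0.13), and the seed vacuole nitrate transporter NRT2.7 at 122 to 125 CPM and 118 to 147 CPM (−0.12 ± 0.07, 0.31).

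**Figure D3:**
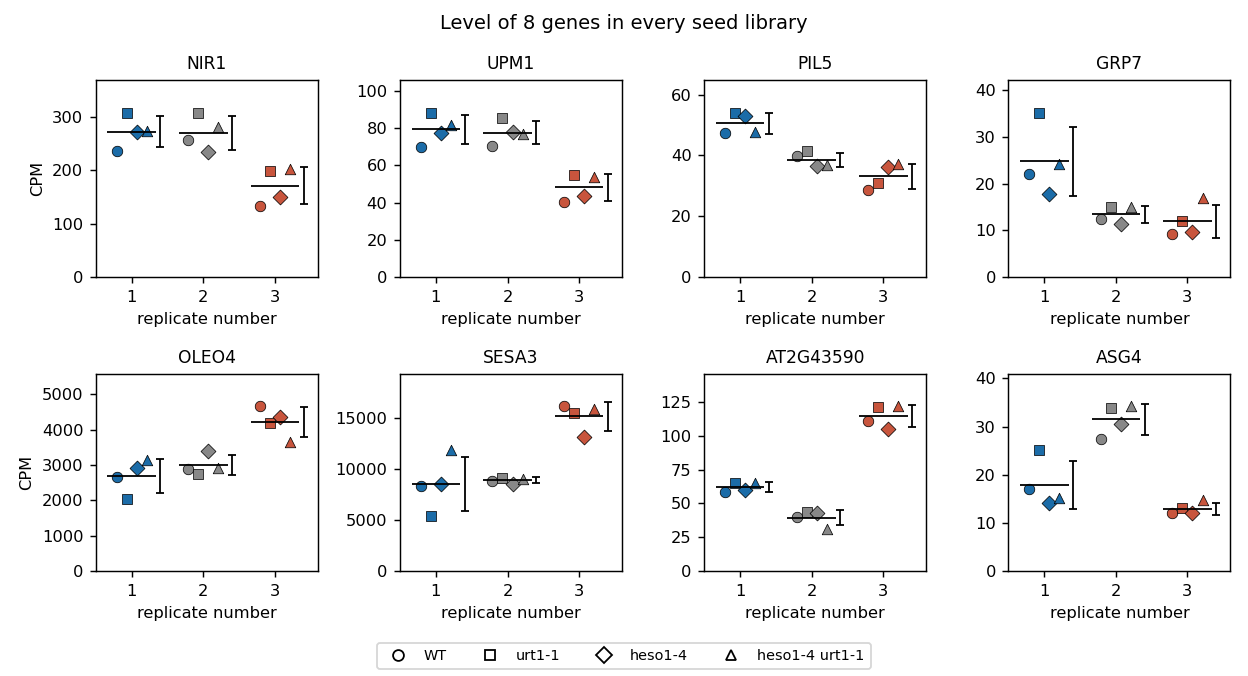
CPM of 8 genes in every seed library by replicate number, with genotype as symbol, the mean as a horizontal line and the SD of 4 libraries as a bar beside it; each vertical axis starts at 0. NIR1, UPM1, PIL5 and GRP7 are higher in replicate 1 than in replicate 3, OLEO4, SESA3 and AT2G43590 are lower, and ASG4 is highest in replicate 2.

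Seed storage and oil body genes that passed the test were all lower in replicate 1. Among 12 storage protein genes 4 (33.3%) were lower and none higher, all 12 had a negative fold change, and the median was −0.44. SESA3, a 2S albumin precursor (chr4:13611796-13612563, plus strand), stood at 8388, 5426, 8598 and 11890 CPM in replicate 1, 8896, 9186, 8579 and 9066 CPM in replicate 2 and 16180, 15530, 13160 and 15930 CPM in replicate 3 (−0.86 ± 0.16, adjusted p = 4.9e-03). All replicate 3 libraries exceeded all others. SESA3 lies beside close paralogs whose reads may be split uncertainly. CRU3, a cruciferin of the 12S globulins, stood at 19980, 18640, 19840 and 32840 CPM in replicate 1 and 39090, 39130, 21690 and 43420 CPM in replicate 3 (−0.65 ± 0.17, 0.027). Its 2 numbers overlapped, through the double line in replicate 1 and the library labelled heso1-4 in replicate 3. SESA5 (−0.50 ± 0.13, 0.025) and the cupin gene AT1G03890 (−0.80 ± 0.20, 0.046) were the other called members. The calls of CRU3 and SESA5 held in 7 of the 12 fits without 1 library and that of AT1G03890 in 3, all of them being lost without WT replicate 1 or urt1-1 replicate 3. The list's median was −0.56 in WT, −0.90 in urt1-1, −0.12 in heso1-4 labelled libraries and −0.09 in the double line, so its size belonged mainly to the first pair of genotypes.

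Of 12 oil body genes, 8 (66.7%) were lower in replicate 1, none was higher and the median was −0.40. OLEO4, an oleosin that coats oil bodies (chr3:10243244-10245023, plus strand), stood at 2674, 2040, 2918 and 3148 CPM in replicate 1, 2875, 2757, 3406 and 2930 CPM in replicate 2 and 4661, 4185, 4353 and 3655 CPM in replicate 3 (−0.66 ± 0.12, adjusted p = 4.3e-03). ATS1, the caleosin peroxygenase of oil bodies and 1 of the 56 genes called with any genotype left out, stood at 518, 348, 520 and 518 CPM in replicate 1, 466, 441, 474 and 466 CPM in replicate 2 and 804, 742, 686 and 741 CPM in replicate 3 (−0.66 ± 0.10, 1.5e-03). In both genes replicate 3 lay above every other library. OLEO2 (−0.56 ± 0.11, 6.4e-03) and the oleosin family gene AT3G18570 (−0.41 ± 0.08, 4.8e-03) followed, and the calls of all 4 named genes held without any 1 library. The storage count ranged from 1 to 6 and the oil body count from 4 to 10 over the 12 fits without 1 library, lowest without WT replicate 1 or urt1-1 replicate 3 in both lists and also without urt1-1 replicate 1 for the oil bodies. Without the library labelled heso1-4 of replicate 3 the counts were 3 and 8. With all WT libraries or all urt1-1 libraries left out, 0 storage genes passed and 1 oil body gene did in each case, at medians from −0.33 to −0.41, and the same counts came from the 8 libraries of replicates 1 and 3 alone.

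The 250 bases before the annotated start of SESA3, OLEO4, NIR1 and UPM1 are shown because the first pair was lower and the second pair higher in replicate 1, and because seed maturation factors are known to bind the RY element CATGCA and ABA-related bZIP factors the core ACGTG. Sequences were read from the RefSeq TAIR10.1 genome on the plus strand, at chr4:13611546-13611795 for SESA3, chr3:10242994-10243243 for OLEO4, chr2:6810145-6810394 for NIR1 and chr5:16365650-16365899 for UPM1. Capitals mark matches to either word on either strand.
SESA3: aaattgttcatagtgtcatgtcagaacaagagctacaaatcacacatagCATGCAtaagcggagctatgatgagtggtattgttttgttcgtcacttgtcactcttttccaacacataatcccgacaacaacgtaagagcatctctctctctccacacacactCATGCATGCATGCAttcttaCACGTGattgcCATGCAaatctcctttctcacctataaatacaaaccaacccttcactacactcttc
OLEO4: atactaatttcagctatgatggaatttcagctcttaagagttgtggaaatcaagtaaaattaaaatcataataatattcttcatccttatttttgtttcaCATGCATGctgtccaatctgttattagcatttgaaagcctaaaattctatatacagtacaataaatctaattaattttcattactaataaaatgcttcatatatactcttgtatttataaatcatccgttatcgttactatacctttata
NIR1: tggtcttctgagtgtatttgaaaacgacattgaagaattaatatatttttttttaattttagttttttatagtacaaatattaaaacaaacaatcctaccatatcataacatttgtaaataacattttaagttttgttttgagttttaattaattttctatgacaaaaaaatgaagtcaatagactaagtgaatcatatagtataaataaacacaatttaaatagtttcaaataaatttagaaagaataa
UPM1: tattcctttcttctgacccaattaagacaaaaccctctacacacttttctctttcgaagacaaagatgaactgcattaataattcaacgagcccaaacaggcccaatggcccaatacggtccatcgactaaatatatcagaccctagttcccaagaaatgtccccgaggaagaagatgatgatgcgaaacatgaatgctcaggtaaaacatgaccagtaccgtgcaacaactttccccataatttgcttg
SESA3 held 7 overlapping matches to CATGCA and 2 to ACGTG, counting both strands, OLEO4 held 2 to CATGCA, and neither word occurs in the windows of NIR1 and UPM1. Over all windows of that length, CATGCA occurred in 6.43% of 762 genes higher in replicate 1 and 12% of 843 lower genes, beside 7.1% of 17445 tested genes. ACGTG occurred in 24% of the higher, 32.1% of the lower and 4116 of the 17445 tested genes. TGGGCC, a word known from promoters of ribosomal protein and other growth genes, occurred in 24.7% of the higher, 14% of the lower and 17.9% of all, and AAACCCTA, the telobox, in 5.91%, 1.66% and 4.18%. Shares of the ethylene-related GCCGCC were 1.18%, 2.14% and 2.14%, and of the clock-related AAATATCT 5.12%, 5.34% and 4.6%. The remaining words gave 8.4%, 13.3% and 7.81% for CACGTG, which contains ACGTG on both strands, 39.1%, 47.3% and 44.7% for TTGAC, 12.3%, 15.1% and 13.6% for CCGAC and 11.4%, 14.2% and 12.5% for GATAAG. A match of letters is a description and shows no binding.

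LEA and ABA-responsive genes, which protect drying cells, moved less. Of 20 tested, 3 (15%) were lower and 0 higher in replicate 1, with a median of −0.14. The dehydrin gene RAB18 stood at 9892, 8285, 9592 and 10320 CPM in replicate 1 and 14860, 13610, 13740 and 11470 CPM in replicate 3 (−0.49 ± 0.11, adjusted p = 0.015). GEA6, an Em protein, stood at 3160, 3629, 3296 and 4183 CPM in replicate 1 and 4534, 5059, 5068 and 4541 CPM in replicate 3 (−0.43 ± 0.10, 0.017), and the seed maturation protein AT3G22490 differed by −0.30 ± 0.08 (0.034). Each numbered group of the first 2 genes was separate from the other. Their calls were lost without WT replicate 1, urt1-1 replicate 1, heso1-4 replicate 1, WT replicate 3 or urt1-1 replicate 3 (adjusted p from 0.051 to 0.1), and no LEA gene was called in those 5 fits. The list's median was −0.49 in WT and −0.28 in urt1-1 but 0.30 in heso1-4 labelled libraries and −0.13 in the double line, and without the heso1-4 library of replicate 3 the count was 6. Of 13 seed maturation transcription factors 1 was lower and 0 higher. It was BZIP53, which binds storage gene promoters with other bZIP factors, at 39.8, 25.3, 40.4 and 28.4 CPM in replicate 1 and 66.7, 45.5, 55.6 and 36.5 CPM in replicate 3 (−0.61 ± 0.09, 1.5e-03). Each genotype was lower in replicate 1 although the ranges of the 2 numbers crossed. ABI5, the ABA-regulated bZIP factor, did not pass (−0.19 ± 0.12, 0.38).

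Regulators of dormancy and germination split. Of 15 tested genes 4 (26.7%) were higher and 3 (20%) lower in replicate 1, at a median of 0.06. PIL5 (PIF1), which represses germination in the dark, stood at 47.5, 54.1, 52.9 and 47.8 CPM in replicate 1, 39.7, 41.4, 36.6 and 36.7 CPM in replicate 2 and 28.6, 30.8, 36.3 and 37.1 CPM in replicate 3 (0.61 ± 0.09, adjusted p = 1.4e-03). RGL2, the DELLA protein that restrains germination when gibberellin is low, stood at 20.6, 35.1, 22.2 and 27.0 CPM in replicate 1, 14.9, 19.97, 13.5 and 21.6 CPM in replicate 2 and 13.1, 16.2, 12.7 and 20.6 CPM in replicate 3 (0.74 ± 0.11, 1.1e-03). Replicate 1 was separate from replicate 3 in PIL5 and touched it in RGL2, where the lowest replicate 1 value and the highest replicate 3 value both round to 20.6 CPM. The DELLA genes GAI (0.35 ± 0.08, 0.019) and RGA1 (0.40 ± 0.10, 0.026) were also higher, so 3 called genes of the list encode DELLA proteins. The lower genes were AT4G11040, known as the dormancy phosphatase RDO5 (−0.30 ± 0.07, 0.016), the gibberellin receptor GID1A (−0.23 ± 0.07, 0.039) and E12A11, known as MFT (−0.34 ± 0.10, 0.048); RGA1, GID1A and E12A11 were named after their values were seen. DOG1, the main dormancy gene, stood at 38.6, 19.6, 44.5 and 41.6 CPM in replicate 1 and 94.7, 69.4, 62.6 and 51.7 CPM in replicate 3, lower in 4 of 4 genotypes without passing the test (−0.95 ± 0.26, 0.074), and was named after its value was seen. PIL5 and RGL2 held without any 1 library, GAI was lost without WT replicate 1, urt1-1 replicate 1, WT replicate 3 or urt1-1 replicate 3, and AT4G11040 without WT replicate 1 or urt1-1 replicate 3. Over the 12 fits the list gave 2 to 4 higher and 0 to 4 lower genes, fewest without WT replicate 1 or urt1-1 replicate 3, and 0 genes passed with all urt1-1 libraries left out.

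Of 24 genes of ABA synthesis, breakdown and signalling 4 (16.7%) were lower and 0 higher in replicate 1, and all 4 encode protein phosphatases 2C, which shut off ABA signalling. HAI3 stood at 52.0, 62.3, 64.2 and 86.8 CPM in replicate 1 and 64.4, 88.5, 79.6 and 90.3 CPM in replicate 3 (−0.29 ± 0.07, adjusted p = 0.024). AHG1 (−0.32 ± 0.09, 0.028), HAI2 (−0.33 ± 0.09, 0.029) and HAB1 (−0.30 ± 0.09, 0.039) differed by a like amount. Each group mean was lower in replicate 1, and the ranges of the 2 numbers overlapped for HAI3. None of the 4 was called without WT replicate 1, urt1-1 replicate 1, WT replicate 3 or urt1-1 replicate 3 (adjusted p up to 0.19 over these genes), so the count fell to 0 there.

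Stress-related messengers with known rapid turnover were lower in replicate 1 where they differed. Of 22 genes for short-lived stress transcription factors 6 (27.3%) were lower and 0 higher, with a median of −0.16. STZ, a zinc finger repressor induced by salt, stood at 72.8, 51.8, 76.8 and 76.0 CPM in replicate 1, 83.1, 76.2, 99.3 and 84.7 CPM in replicate 2 and 117, 95.3, 122 and 83.0 CPM in replicate 3 (−0.59 ± 0.10, adjusted p = 3.2e-03). Replicate 1 lay below replicate 3 in every library, with the mean of replicate 2 in between. ZAT6, another zinc finger factor, differed by −0.46 ± 0.07 (2.0e-03), and the NAC factors RD26 and NAC062 by −0.41 ± 0.09 (9.0e-03) and −0.40 ± 0.09 (0.013). Without urt1-1 replicate 3, RD26 was lost and the list's count was 2. Of 19 ethylene genes 5 (26.3%) were lower and 0 higher. ACS6, which makes the precursor of ethylene and is 1 of the 56 genes called with any genotype left out, stood at 12.7, 6.99, 9.86 and 6.12 CPM in replicate 1 and 23.4, 11.8, 16.4 and 10.5 CPM in replicate 3 (−0.79 ± 0.10, 8.2e-04). Both insertion lines with urt1-1 ran lower than the other 2 at either number, and within each genotype replicate 1 was lower. EBF2, an F-box protein that removes the ethylene factor EIN3, differed by −0.42 ± 0.07 (3.2e-03), AT5G61590 of the ERF family by −0.39 ± 0.07 (2.7e-03) and Rap2.6L by −0.36 ± 0.08 (0.012). Without WT replicate 1, urt1-1 replicate 1, WT replicate 3 or urt1-1 replicate 3, Rap2.6L was lost and the ethylene count was 3.

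Low-oxygen genes had 5 lower (38.5%) and 0 higher of 13, with a median of −0.50. AT4G33070 (PDC1) and PDC2, the pyruvate decarboxylases of ethanol fermentation, stood at 18.5 to 23.0 and 311 to 380 CPM in replicate 1 and at 26.3 to 32.4 and 403 to 510 CPM in replicate 3 (−0.51 ± 0.08, adjusted p = 2.1e-03, and −0.37 ± 0.08, 8.2e-03). Neither overlapped between the 2 numbers. The hypoxia repressor LBD41 differed by −0.64 ± 0.13 (6.6e-03) and ADH1, the alcohol dehydrogenase, by −0.34 ± 0.09 (0.033). ADH1 was called in 4 of the 12 fits, and PDC2 was lost without urt1-1 replicate 3, where the list's count was 2. APR2, which reduces sulphate for cysteine synthesis, was the 1 lower gene of 7 sulphur genes, at 55.04, 64.6, 66.9 and 60.5 CPM in replicate 1 and 92.2, 96.0, 95.7 and 78.5 CPM in replicate 3 (−0.55 ± 0.09, 3.1e-03). All 7 tested sulphur genes had negative fold changes, at a median of −0.39. EDS16, the isochorismate synthase of salicylic acid synthesis, was the 1 lower gene of 15 in that list (−0.66 ± 0.11, 2.4e-03), with 17.0 to 29.5 CPM in replicate 1 and 20.6 to 53.3 CPM in replicate 3. The salicylic acid list had 10 positive and 5 negative fold changes at a median of 0.18. By genotype its median was 0.86 in WT, 1 in urt1-1, −0.69 in heso1-4 labelled libraries and −0.15 in the double line.

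Of 20 clock genes GRP7, an RNA-binding protein under clock and cold control, and TOC1 were higher and GI lower in replicate 1. GRP7 stood at 22, 35.2, 17.9 and 24.1 CPM in replicate 1, 12.5, 15.0, 11.4 and 15.0 CPM in replicate 2 and 9.30, 12.1, 9.56 and 16.8 CPM in replicate 3 (1.05 ± 0.14, adjusted p = 9.3e-04), with replicate 1 above all 8 other libraries. TOC1 (0.40 ± 0.10, 0.023) and GI (−0.40 ± 0.08, 9.1e-03) were both lost without urt1-1 replicate 1 or urt1-1 replicate 3. Of 28 core histone genes 7 (25%) were lower and 0 higher at a median of −0.21, among them HTA13 (−0.40 ± 0.09, 0.016) and AT3G27360 (−0.37 ± 0.08, 8.4e-03), and the count was 0 without WT replicate 3. Of 21 jasmonate genes JAR1, which joins jasmonate to isoleucine, was higher (0.57 ± 0.10, 3.1e-03) and PR4 (−0.51 ± 0.10, 7.4e-03) and AOC3 (−0.51 ± 0.14, 0.029) lower, both of the last being lost without urt1-1 replicate 1. The jasmonate list as a whole leaned higher, with 16 positive and 5 negative fold changes at a median of 0.62. By genotype its median was 0.88 in WT, 0.77 in urt1-1, 0.39 in heso1-4 labelled libraries and −0.24 in the double line. Its higher count ran from 1 to 8 over the 12 fits without 1 library. Iron, copper and zinc genes had 1 higher and 3 lower of 13, with the ferritins FER2 (−0.40 ± 0.10, 0.025) and FER4 (−0.38 ± 0.10, 0.026) among the lower, each overlapping another gene on its strand. The ribosomal protein list was taken by words in the reference product name and covers only a part of that family. It had 3 higher and 0 lower of 13 tested, and called ribosomal protein genes outside it were not counted. Genes called between replicates 1 and 3 include RPS15, RPS15A, RPL34, RPS5B, RPL18 and RPS13A, named after their values were seen. These are already more than the 3 called in the list, so its count does not measure the family. Heat shock proteins had 2 and 0 of 23, the messenger decay machinery 2 and 0 of 23 (PAB8 at 0.27 ± 0.07 and PAB4 at 0.24 ± 0.07), and senescence and chlorophyll breakdown genes 0 and 2 of 18. Oil synthesis genes had 1 and 1 of 19, oil mobilisation genes 0 and 1 of 19, cold-responsive genes 0 and 1 of 11, phosphate starvation genes 0 and 1 of 13 and cell division genes 0 and 0 of 7. The cold-responsive list had 7 positive and 4 negative fold changes at a median of 0.115. By genotype its median was 1.07 in WT, 0.593 in urt1-1, −0.455 in heso1-4 labelled libraries and −0.461 in the double line. Plastid-encoded genes had 7 and 3 of 96, so that 10.4% were called against 9.22% of all tested genes. Mitochondrion-encoded genes had 0 and 5 of 29 (17.2% lower). Long noncoding RNAs had 1 and 3 of 313 and snoRNAs 0 and 2 of 174, which are 1.28% and 1.15% called. No snRNA of 36 and no miRNA gene of 32 was called. In several of these lists the counts came to 0 without WT replicate 1, urt1-1 replicate 1, WT replicate 3 or urt1-1 replicate 3, namely those of iron, heat shock, messenger decay, senescence, cold, phosphate, oil synthesis and oil mobilisation genes.

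Among the lists of markers of other tissue, that of mature pollen had the most called members. Of 16 tested mature pollen genes 8 (50%) were lower and 0 higher in replicate 1, all 16 had negative fold changes, and the median was −2.02. The summed level of the list was 12.4 to 21.8 CPM in replicate 1, 12.9 to 38.5 CPM in replicate 2 and 24.7 to 76.1 CPM in replicate 3, the highest being the library labelled heso1-4. AT3G07820, a pectin lyase-like enzyme of pollen, stood at 0.880, 0.642, 0.389 and 0.319 CPM in replicate 1 and 4.86, 2.74, 4.98 and 1.33 CPM in replicate 3 (−2.56 ± 0.38, adjusted p = 1.5e-03), and AT5G19580, related to glyoxal oxidase, at 1.22, 0.749, 0.283 and 0.290 CPM and 4.95, 2.33, 6.14 and 2.41 CPM (−2.59 ± 0.44, 4.8e-03). Both were separate between the 2 numbers and belong to the 56 genes called with any genotype left out. The median was −1.32 in WT, −1.30 in urt1-1, −3.65 in heso1-4 labelled libraries and −1.05 in the double line, and it was −1.84 with 6 genes lower without the heso1-4 library of replicate 3. The count was lowest, at 2, without WT replicate 3 or urt1-1 replicate 3. Photosynthesis genes, a marker of green tissue, had 0 called of 26 at a median of 0.23, and summed to 149 to 194 CPM in replicate 1 and 113 to 183 CPM in replicate 3. The vascular and lignin list of dry silique tissue had 1 higher (CCoAOMT1, 0.91 ± 0.24, 0.027) and 0 lower of 11 and summed to 131 to 142 CPM against 133 to 146 CPM. Most of that sum came from C4H, CCR1 and FAH1, so it says little of the other members. Of the 11, 7 had positive and 4 negative fold changes. CAD5 stood at 6.31, 5.42, 2.72 and 2.2 CPM in replicate 1 and 1.14, 1.27, 2.77 and 2.02 CPM in replicate 3. It was not called and was named after its values were seen. The CCoAOMT1 call was lost without WT replicate 1, urt1-1 replicate 1, WT replicate 3 or urt1-1 replicate 3 (adjusted p up to 0.14). Seed coat genes had 0 higher and 1 lower of 14 (TT4, −0.99 ± 0.29, 0.046, a call lost in 9 of the 12 fits without 1 library with an adjusted p up to 0.23), and floral organ genes 0 of 6 and endosperm genes 0 of 2. The part of pollen or other adhering material in the seed results was not tested.

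**Figure D4:**
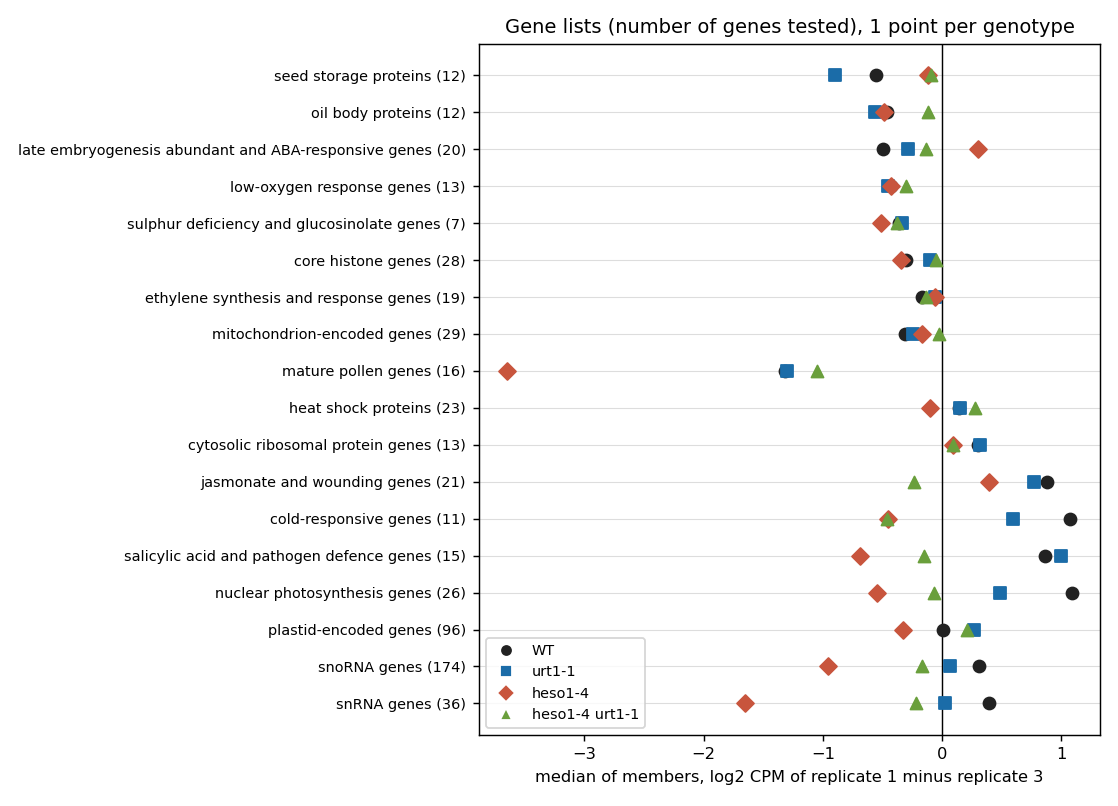
Median over list members of log2 CPM in replicate 1 minus replicate 3, 1 point per genotype, with the number of tested genes in parentheses; 0 is marked by a vertical line. The storage, oil body, low-oxygen, sulphur, histone, ethylene, mitochondrial and pollen lists lie left of 0 in all genotypes, whereas the photosynthesis list runs from 1.09 in WT to −0.55 in heso1-4 labelled libraries.

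Replicate 2 was nearer to replicate 1. Replicate 1 against replicate 2 called 197 genes (1.12%), 105 higher and 92 lower, and replicate 2 against replicate 3 called 893 (5.08%), 506 higher and 387 lower. These comparisons share libraries with the first. Over the fits without 1 library the first count ran from 4 to 543 and the second from 264 to 1127. The 197 came to between 4 and 68 without WT or urt1-1 replicate 1 or any 1 library of replicate 2, and the 893 to between 264 and 416 without any 1 library of replicate 2, WT replicate 3 or urt1-1 replicate 3. Without the heso1-4 library of replicate 3, 543 genes differed between replicates 1 and 2. Of the 1620 genes called between replicates 1 and 3, replicate 2 lay between them in 1264 (78%) and nearer to replicate 1 in 1039 (64.1%), beside 39.5% and 54.8% of all tested genes. On a scale where 0 is replicate 3 and 1 is replicate 1, the median position of replicate 2 was 0.642 for the called genes and 0.609 for all tested genes. Choosing genes by their difference between replicates 1 and 3 itself favours a replicate 2 that lies between them. Over the 17571 tested genes, 949 (5.4%) had all 4 replicate 1 libraries above all 4 of replicate 3 and 985 (5.61%) had them all below. Of the 769 called higher genes 457 and of the 851 lower genes 602 were apart in this way.

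**Figure D5:**
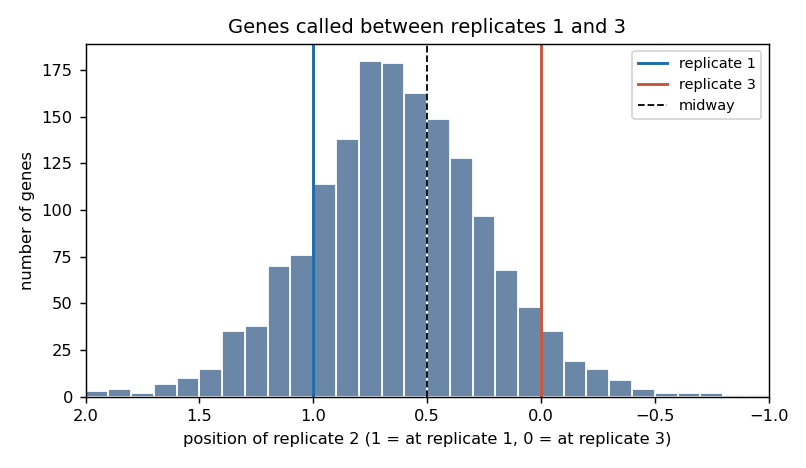
Position of replicate 2 on the log2 scale for the 1620 genes called between replicates 1 and 3, where 1 is the mean of replicate 1 and 0 that of replicate 3; the bars count genes and values outside −1 to 2 are drawn at the ends. Most genes lie between the 2 lines, a place that the choice of genes by this difference favours, and the peak lies closer to replicate 1.

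A smaller set of genes set replicate 2 apart from both. Against the midpoint of replicates 1 and 3, 244 genes (1.39%) differed in replicate 2, 170 higher and 74 lower, and this count ran from 20 without heso1-4 urt1-1 replicate 2 to 509 without heso1-4 replicate 3. AT2G43590, of the chitinase family, had its lowest levels in replicate 2, with 58.9, 65.5, 59.8 and 65.5 CPM in replicate 1, 40.2, 43.5, 43.2 and 31.2 CPM in replicate 2 and 111, 122, 105 and 122 CPM in replicate 3. The 3 numbers did not overlap. It differed by 0.66 ± 0.09 between replicates 1 and 2 (edgeR adjusted p = 7.9e-03) and by −1.54 ± 0.09 between 2 and 3 (7.5e-07). ASG4, a Myb-related gene that overlaps another gene on its strand, peaked in replicate 2 at 27.3, 33.9, 30.6 and 34.2 CPM, with 17.1, 25.0, 14.2 and 15.2 CPM in replicate 1 and 12.1, 13.01, 11.9 and 14.7 CPM in replicate 3 (1.06 ± 0.10 against the midpoint, 3.7e-04). HCEF1, the plastid fructose bisphosphatase of photosynthetic carbon fixation, stood at 13.5 to 16.3 CPM in replicate 2 and 3.77 to 8.16 CPM in replicate 3 (1.47 ± 0.15, 1.4e-04). These 3 genes kept their calls against the midpoint in each fit without 1 library. PMEAMT, a phosphoethanolamine methyltransferase that makes precursors of membrane lipid, stood at 4.45 to 6.33 CPM in replicate 2 and 1.78 to 2.38 CPM in replicate 3 (1.36 ± 0.19, 9.3e-04) and at 4.70 to 7.59 CPM in replicate 1.

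PYK10 and NAI2, which encode the beta-glucosidase of endoplasmic reticulum bodies and a protein those bodies need, had their highest means in replicate 1. PYK10 stood at 7.92, 18.8, 3.50 and 28.6 CPM in replicate 1, 0.812, 1.35, 0.0496 and 1.33 CPM in replicate 2 and 0.888, 2.303, 0.865 and 7.58 CPM in replicate 3. It differed by 3.98 ± 0.36 between replicates 1 and 2 (edgeR adjusted p = 5.9e-03) and by 2.45 ± 0.32 between replicates 1 and 3 (2.8e-03). NAI2 stood at 4.11, 9.88, 3.18 and 12.0 CPM in replicate 1, 1.495, 3.44, 0.744 and 2.86 CPM in replicate 2 and 0.930, 1.19, 0.909 and 5.07 CPM in replicate 3 (1.73 ± 0.31 between replicates 1 and 2, 0.023). In both genes the 2 lines with urt1-1 were above the other 2 in replicate 1, every genotype was higher in replicate 1 than in either other number, and the double line of replicate 3 reached into the range of replicate 1. The PYK10 call held without any 1 library, and that of NAI2 between replicates 1 and 2 was lost in 6 fits, namely without WT, urt1-1 or heso1-4 replicate 1 or without WT, heso1-4 or heso1-4 urt1-1 replicate 2. BGAL10, a beta-galactosidase of xyloglucan, was also lowest in replicate 2 (1.49 ± 0.23 between replicates 1 and 2, 7.9e-03), a call lost without urt1-1 replicate 1 or heso1-4 urt1-1 replicate 2. XTH11, of the xyloglucan endotransglucosylase family, was lower in replicate 1, with 14.7 to 17.64 CPM there and 25.0 to 31.7 CPM in replicate 2 (−0.77 ± 0.12, 8.1e-03), a call lost without WT or urt1-1 replicate 1 or heso1-4 or heso1-4 urt1-1 replicate 2. SESA4, a paralog beside SESA3, had 731 to 1320 CPM in replicate 1, 1190 to 2170 CPM in replicate 2 and 971 to 1520 CPM in replicate 3 (−0.89 ± 0.15 between replicates 1 and 2, 0.020). That call was lost in 6 of the 12 fits without 1 library (adjusted p up to 0.12), and the lowest value of replicate 2 is that of the library labelled heso1-4.

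Whether the difference between replicates 1 and 3 depended on genotype was tested by interactions. For libraries with the heso1-4 label against those without it, 42 genes (0.239%) passed and 1914 had an unadjusted p under 0.05. The interaction, labelled minus others, was positive in 3 of the 42 and negative in 39, which gives its sign and not the size of either difference. LTP3, a lipid transfer protein induced by ABA and drought, stood at 5.196 and 3.25 CPM in replicate 1 and 13.8 and 6.07 CPM in replicate 3 of the labelled libraries, and at 9.24 and 10.98 CPM and 2.07 and 2.33 CPM in WT and urt1-1. Its order was thus opposite with and without the label, at −1.16 ± 0.20 and 2.198 ± 0.21 (interaction −3.36 ± 0.29, edgeR adjusted p = 1.8e-04). AOX1D, an alternative oxidase of mitochondria, gave −1.38 ± 0.28 in labelled libraries and 1.90 ± 0.28 in the others (−3.28 ± 0.40, 6.8e-03), CORI3, a coronatine- and jasmonate-induced aminotransferase-like gene, −0.71 ± 0.37 and 3.26 ± 0.42 (−3.97 ± 0.56, 0.033), and AT2G34810 of the berberine bridge enzyme family −0.07 ± 0.30 and 3.04 ± 0.33 (−3.10 ± 0.45, 0.014). In the other direction were TPPJ, a trehalose phosphatase, with 0.42 ± 0.12 and −0.68 ± 0.12 (1.101 ± 0.17, 0.014), CCD7 of strigolactone synthesis with 0.02 ± 0.09 and −0.85 ± 0.09 (0.86 ± 0.13, 0.014), and AT5G59170, a proline-rich extensin-like gene (0.77 ± 0.15, 0.045). The interaction count was 90 without the heso1-4 library of replicate 3 and ranged from 2 to 833 over the fits without 1 library. LTP3 was called in each of them, while CORI3 and AT5G59170 were each lost in 6 of the 12 (adjusted p up to 0.16 and 0.43), AOX1D was lost without WT replicate 1 or WT replicate 3, and TPPJ, CCD7 and AT2G34810 were lost without any 1 of the WT and urt1-1 libraries of replicates 1 and 3. For libraries with the urt1-1 label against those without it 0 genes passed in edgeR (0%), with 844 at an unadjusted p under 0.05 and up to 620 passing when WT replicate 3 was left out.

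Flower buds of the same 4 genotypes, collected 2 weeks after the onset of flowering, carry the same replicate numbers. The labels do not link a number in seeds to that number in flower buds. The directions below therefore follow the numbering as given, and a same or opposite direction cannot be read as an effect of tissue. In 1 fit of all 24 libraries, over 23163 genes, replicates 1 and 3 differed in 1343 genes (5.8%) of seeds and 4062 (17.5%) of flower buds. Called in both were 397, which is 29.6% of the seed and 9.77% of the flower bud genes, and 88 of these had the same direction while 309 had opposite directions. The difference between replicates 1 and 3 itself differed between the tissues in 2777 genes (12%), among them 848 (63.1%) of the 1343 seed genes. The interaction, seeds minus flower buds, was positive in 1318 and negative in 1459. NIR1, UPM1 and GRP7 were all higher in replicate 1 of seeds and lower in replicate 1 of flower buds. In flower buds NIR1 differed by −0.90 ± 0.13 (interaction 1.57 ± 0.19, edgeR adjusted p = 4.3e-05), UPM1 by −1.19 ± 0.12 (1.90 ± 0.17, 4.0e-06) and GRP7 by −1.60 ± 0.18 (2.64 ± 0.26, 9.5e-06). ACS6, lower in replicate 1 of seeds, was higher in that of flower buds (0.74 ± 0.17, interaction −1.55 ± 0.24, 4.8e-04). PIL5 and RGL2 did not pass in flower buds (−0.07 ± 0.13 and −0.13 ± 0.10) and their interactions did (0.67 ± 0.19, 0.024, and 0.86 ± 0.14, 6.7e-04). SESA3 showed −0.31 ± 0.28 in flower buds with no called interaction (0.33). The largest interactions came from flower buds. AT2G45220, of the family annotated as invertase and pectin methylesterase inhibitor, AT2G38900, a protease inhibitor, AT5G46040, a transporter of the major facilitator family, and AT5G39520, of unknown function, gave −10.6 ± 1.3, −8.64 ± 1.04, −7.40 ± 1.00 and −6.40 ± 0.54, with flower bud differences of 10.9 ± 1.1, 7.69 ± 1.02, 6.63 ± 0.97 and 5.97 ± 0.48. None of these 4 was called between replicates 1 and 3 in seeds. AT1G15125, a methyltransferase family gene that overlaps another gene on its strand, was higher in replicate 1 of seeds (1.44 ± 0.17) and lower in that of flower buds (−2.04 ± 0.61, interaction 3.47 ± 0.78, 8.9e-03). Tissue, collection time and extraction method differ together between seeds and flower buds and cannot be told apart.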

How the data were processed

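Seed and flower bud libraries were grouped by the tissue, genotype and replicate number in the labels. The authors deposited raw read counts per gene, 1 table per tissue, not normalized. Per the file headers, featureCounts 2.0.6 counted reverse-stranded paired reads over whole gene spans and counted a read that overlapped several genes for each. The sources used here do not give whether single reads or pairs were counted. HISAT2 2.2.1, bcl2fastq, DESeq2 1.38.3, R 4.2.2 and the build TAIR10 appear in the submitters' processing notes. Of 33243 gene IDs 33056 were found in RefSeq TAIR10.1.

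Here edgeR 4.0.16 (R 4.3.3) was fitted to the counts of the 12 seed libraries (filterByExpr on replicate number with a minimum count of 10, TMM, robust quasi-likelihood fit), with genotype as a block and replicate number as a factor. P-values were adjusted by Benjamini-Hochberg over all tested genes at 0.05. The biological coefficient of variation was 0.138. Fold changes are log2 with SE. Interactions added replicate number by heso1-4 or urt1-1 label, and the tissue fit used all 24 libraries. The procedure was tested on simulated data. Alternatives were DESeq2 1.42.0, RLE factors, no filter, limma-voom (limma 3.58.1), no block, 8 libraries, and libraries or genotypes left out.

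Genes named were, for replicate 1 against 3, the 10 largest differences per direction among called genes with no overlap between 4 and 4 libraries and a higher mean of at least 5 CPM. Up to 4 per direction were named in other comparisons, and up to 4 per list by smallest adjusted p. Of the genes chosen for lists and other comparisons the text describes a part. It says where a gene outside this rule was chosen after its value was seen. Members, lists and tests were chosen with earlier results of these data known.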

Additional observations from a re-analysis of the deposited data

Results flagged for a closer look

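In 15 of 336 sets of 4 libraries examined for named genes, 1 library lay far from the other 3, and chance alone flags about 1 set in 20. In the library labelled heso1-4 of replicate 3, AT1G04273 stood at 13.8 CPM (4.38 to 4.74 in the other 3 of its number), AT5G19120 at 8.18 CPM (4.61 to 4.85) and AOX1D at 10.3 CPM (1.69 to 2.77). In that labelled heso1-4 of replicate 2, GSTU9 stood at 21.2 CPM (16.5 to 17.1), APR2 at 90.5 CPM (58.8 to 63.3) and SESA4 at 1190 CPM (2070 to 2170). The double line was high in replicate 1 for CRU3 at 32800 CPM (18600 to 20000), AT5G59170 at 407 CPM (293 to 308) and SSI2 at 35.4 CPM (27.2 to 28.6), and in replicate 3 for NAI2 at 5.07 CPM (0.909 to 1.19). The urt1-1 library of replicate 1 was low for ATS1 at 348 CPM (518 to 520), STZ at 51.8 CPM (72.8 to 76.8), ADH1 at 463 CPM (594 to 611) and AT3G19920 at 608 CPM (704 to 722). WT replicate 3 was low for GAI at 26.5 CPM (31.4 to 31.9).

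The difference between replicates 1 and 3 changed with the heso1-4 label (edgeR interaction, labelled minus others, log2) by 1.1 for TPPJ, 0.865 for CCD7, 0.774 for AT5G59170, −3.97 for CORI3, −3.36 for LTP3, −3.28 for AOX1D and −3.10 for AT2G34810. Between seeds and flower buds it changed by 3.47 for AT1G15125, 4.09 for AHG1, 3.83 for CYP71A15, 3.46 for AT3G19920, −10.6 for AT2G45220, −8.64 for AT2G38900, −7.40 for AT5G46040 and −6.40 for AT5G39520. The AHG1 interaction (adjusted p = 0.045) was lost in 9 of the 12 fits without 1 seed library.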

How the results depend on the processing

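No called gene chosen by the naming rule changed sign under any alternative that tested it. Genes named without a call, such as NIA1, NRT2.7, ABI5 and DOG1, were not examined in this way. The correlations between genotypes were not recomputed under these alternatives. Those for replicate 1 minus 2 and replicate 2 minus 3, which are other differences, were also positive. The count of genes called between replicates 1 and 3 (1620) was 370 with the 8 libraries alone, 196 without WT, 60 without urt1-1 and 661 without the genotype block, 388 to 2203 over fits without 1 library, and 1807 with DESeq2. Replicate 1 against 2 (197) gave 405 with DESeq2, 306 without the filter, 30 without the block and 4 to 543 without 1 library. Replicate 2 against 3 (893) gave 396 without the block and 264 to 1127. Replicate 2 against the midpoint (244) gave 446 with DESeq2, 80 without the block and 20 to 509. Any difference among numbers (1657) gave 599 without the block and 515 to 2315, and among genotypes (247) 709 with DESeq2, 507 without the filter and 68 to 489. The heso1-4 label interaction (42) gave 207 with DESeq2, 202 without the filter and 2 to 833, the urt1-1 interaction (0) 0 to 620, and seeds minus flower buds (2777) 1989 to 2887. Of 125 calls of genes chosen by the naming rule, not all of them described, 55 were lost without WT replicate 1, 53 without urt1-1 replicate 1 or replicate 3 and 47 without WT replicate 3, and of 86 between replicates 1 and 3, 67 were lost without the urt1-1 libraries. Apart from fewer libraries, the cause was not tested. The fold differences of most called genes are small, and genes under a few CPM rest on few counts.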
